A study of Saccharomyces cerevisiae with 12 samples.

Results

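Day 10 and day 6 of a yeast batch culture were compared gene by gene across the array. The comparison used 6 of the series' 12 Affymetrix arrays, 3 labelled as 10 days and 3 labelled as 6 days of stationary phase, and took in every probe set annotated to a single Saccharomyces cerevisiae gene. That gave 5498 of 10928 probe sets, which stood for 5449 genes. The strain was CENPK 113-7D, a haploid laboratory strain, grown in batch on SD medium with 2% glucose, and the remaining arrays of the series came from log phase (3) and day 2 (3). Per the labels, day 10 and day 6 differ in how long the culture had stood, and the labels name no mutation, drug or change of medium between them. The labels count days in stationary phase and the series text counts days of cultivation, so the zero point of both times is not settled. The labels do not state that the 3 arrays of a day are independent cultures: p-values are set against the scatter of these samples, and that scatter may be technical.

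Yeast that has used up its glucose first burns the ethanol and acetate it made, through the glyoxylate cycle, gluconeogenesis and respiration, and then stops dividing. Growing cells devote much of their transcription to ribosomes and biosynthesis under the TOR and protein kinase A pathways, while resting cells express stress proteins, store trehalose and glycogen and recycle cell material by autophagy. In bulk RNA, less RNA per cell and fewer cells of a type cannot be told apart, so a level below is that of the whole culture.

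Levels are log2 values of the deposited probe set summaries, and a difference is day 10 minus day 6 on that log2 scale, given ± the standard error of a limma fit with n = 3 arrays per day. A gene is called, and said to have risen or fallen, where its Benjamini-Hochberg adjusted p over all 5449 genes was under 0.05. A level sets a probe set against itself on another day and not against another probe set. The deposited values have a floor, the lowest being 5.11, which squeezes the differences of genes near it. The median SE was 0.072, and the smallest difference that was called was 0.126 in size. A probe set read as dim where its mean lay below the 95th percentile of 1746 probe sets on the same arrays that are designed to another yeast, which was 5.80 on day 10 and 5.79 on day 6.

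The arrays differed between the days in a further measure. The signal at the 3' end minus that at the 5' end of control genes, which is larger where RNA is more broken or less fully copied, averaged 1.28 ± 0.07 on day 10 and 1.65 ± 0.05 on day 6 (SD, n = 3), and the arrays of the days did not overlap. It was lower on day 10 for all 8 control genes, with ACT1 at 1.67 on day 10 and 2.33 on day 6, and TDH1 at 0.83 on day 10 and 0.89 on day 6. The fit was run again with this signal as a covariate, whose coefficient rests on its variation between arrays of one time. That variation was largest on day 2, outside this comparison, with an SD of 0.24, against 0.07 in log phase. Day 2 replicate 1 stood at 1.13, and replicates 2 and 3 at 0.75 and 0.69. The covariate values below thus lean on the day 2 arrays. Values of the covariate fit are given where it ended the call of a named gene or turned its direction. They are also given for many, but not all, of the counts, medians and named differences that it moved by at least 1.5 times. A list or gene printed without such a value is not thereby unmoved by the covariate. The part of RNA integrity in the results was not otherwise tested. Among the day 10 arrays, replicate 2 lay closest to day 6 in 1980 of the 3319 called genes, against 859 for replicate 1 and 480 for replicate 3. Without it the fit called 3209 genes, 3065 of them among those called with all arrays.

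**Figure D1:**
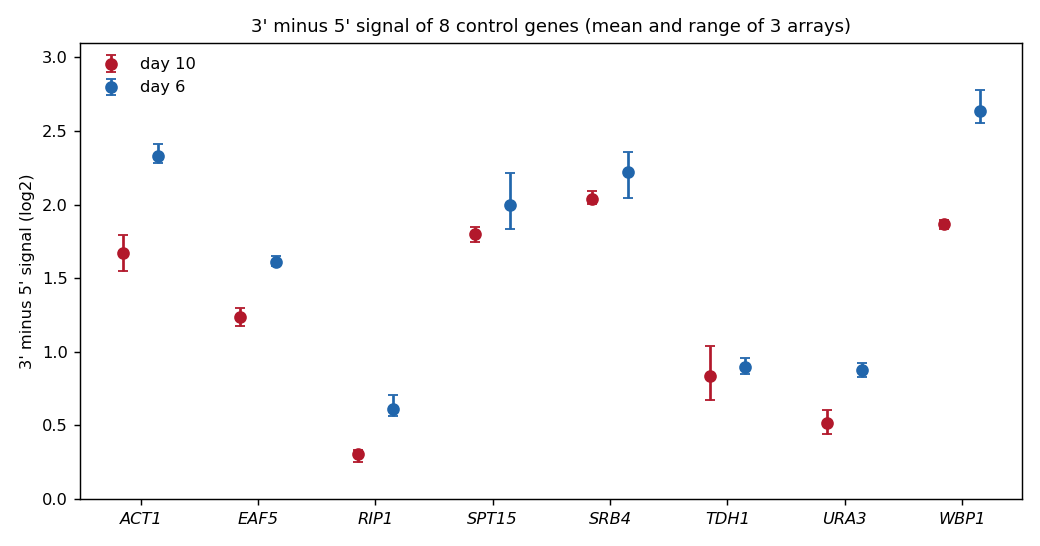
The 3' minus 5' signal (log2) of 8 control genes on day 10 (red, left of each pair) and day 6 (blue, right), as the mean and the range of 3 arrays. The day 10 mean lies below the day 6 mean for each gene, from 0.83 against 0.89 for TDH1 to 1.87 against 2.64 for WBP1.

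Transcript levels differed widely between day 10 and day 6. Of 5449 genes, 3319 were called (60.9%), with 1571 higher (28.8%) and 1748 lower (32.1%) on day 10. A list whose members rose and fell at near these shares did as all genes did, and its counts are not a result about the list. Most differences were small, with a median size of 0.404 among called genes, and 280 genes (5.14%) changed at least 2-fold, 185 of them higher (3.4%) and 95 lower (1.74%). The 3 arrays of day 10 lay wholly above those of day 6 for 1779 genes (32.6%) and wholly below for 1965 (36.1%), 68.7% together. In the same fit 67.1% of genes were called between days 6 and 2 and 67.1% between days 10 and 2, comparisons that share arrays with this one. The zero of the scale bears on the direction of small changes. Centred on 27 bacterial and phage hybridisation controls in place of the deposited scaling, every difference moved up by 0.22 and 1595 genes were higher against 343 lower, and with the 3' minus 5' covariate 1362 were higher and 1501 lower. The hybridisation controls averaged 9.52 ± 0.14 on day 10 and 9.74 ± 0.12 on day 6 (SD, n = 3). These controls do not measure RNA per cell, so a difference of any size here is relative to the scaling used. Every list's median likewise moved up by 0.22 on them. The counts they gave are printed beside many, but not all, of the lists where these moved by at least 1.5 times or the median changed sign.

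The gene that stood highest was ANS1, at levels of 10.21, 8.66 and 9.84 on day 10, against 6.07, 5.81 and 6.005 on day 6. It was 12.2-fold higher on day 10 (3.61 ± 0.27, adjusted p = 2.3e-07), and replicate 2 of day 10 lay well below the other day 10 arrays while still above every day 6 array. ANS1 was dim in log phase and on day 2, with means of 5.51 in log phase and 5.42 on day 2. YMR244W, an uncharacterised reading frame, followed at levels of 10.67, 10.06 and 10.60 on day 10, against 7.73, 7.61 and 7.84 on day 6, a difference of 2.71 ± 0.15. Its arrays were also far apart between the days, with day 10 replicate 2 again the lowest of its day.

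MET6, the methionine synthase, had levels of 11.31, 11.29 and 11.15 on day 10, against 9.03, 8.99 and 8.90 on day 6, 4.85-fold higher (2.28 ± 0.11). PHO84, the high-affinity phosphate transporter, had levels of 10.83, 11.49 and 11.14 on day 10, against 8.86, 8.96 and 9.01 on day 6, 4.63-fold higher (2.21 ± 0.15). Neither gene's arrays overlapped between the days. ALD5, a mitochondrial aldehyde dehydrogenase, rose by 2.20 ± 0.07, and CAR1, the arginase that opens arginine breakdown, by 2.14 ± 0.17. GPP1, a glycerol 3-phosphatase, rose by 2.11 ± 0.14, ADH6, an NADPH-dependent alcohol dehydrogenase, by 1.96 ± 0.09, AAH1, the adenine deaminase, by 1.76 ± 0.13, and PMA1, the proton pump of the plasma membrane, by 1.75 ± 0.10. The day 10 level of ADH6, AAH1 and GPP1 stood at 9.70, 9.94 and 11.49, beside log phase means of 9.15, 9.95 and 11.08.

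ZPS1, a zinc-responsive protein of the cell surface, had levels of 7.27, 7.84 and 7.31 on day 10, against 10.12, 10.92 and 11.09 on day 6, 9.43-fold lower (-3.24 ± 0.24, adjusted p = 2.37e-07), the largest fall. CTR3, a high-affinity copper transporter, had levels of 7.51, 7.66 and 7.49 on day 10, against 9.77, 9.76 and 10.15 on day 6, 5.06-fold lower (-2.34 ± 0.17). YAT1, a carnitine acetyltransferase, had levels of 8.15, 8.43 and 8.10 on day 10, against 10.47, 10.57 and 10.48 on day 6, 4.85-fold lower (-2.28 ± 0.09). In all 3 genes the lowest day 6 array lay above the highest day 10 array by more than 2 log2 units. FMP16, a mitochondrial protein, differed by -1.87 ± 0.18, OM45 of the mitochondrial outer membrane by -1.68 ± 0.14, SUE1, needed to degrade unstable cytochrome c, by -1.68 ± 0.15, and SHH3, a homologue of a succinate dehydrogenase subunit, by -1.79 ± 0.11. CIS1 differed by -1.87 ± 0.14 and UIP4 by -1.64 ± 0.08.

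**Figure D2:**
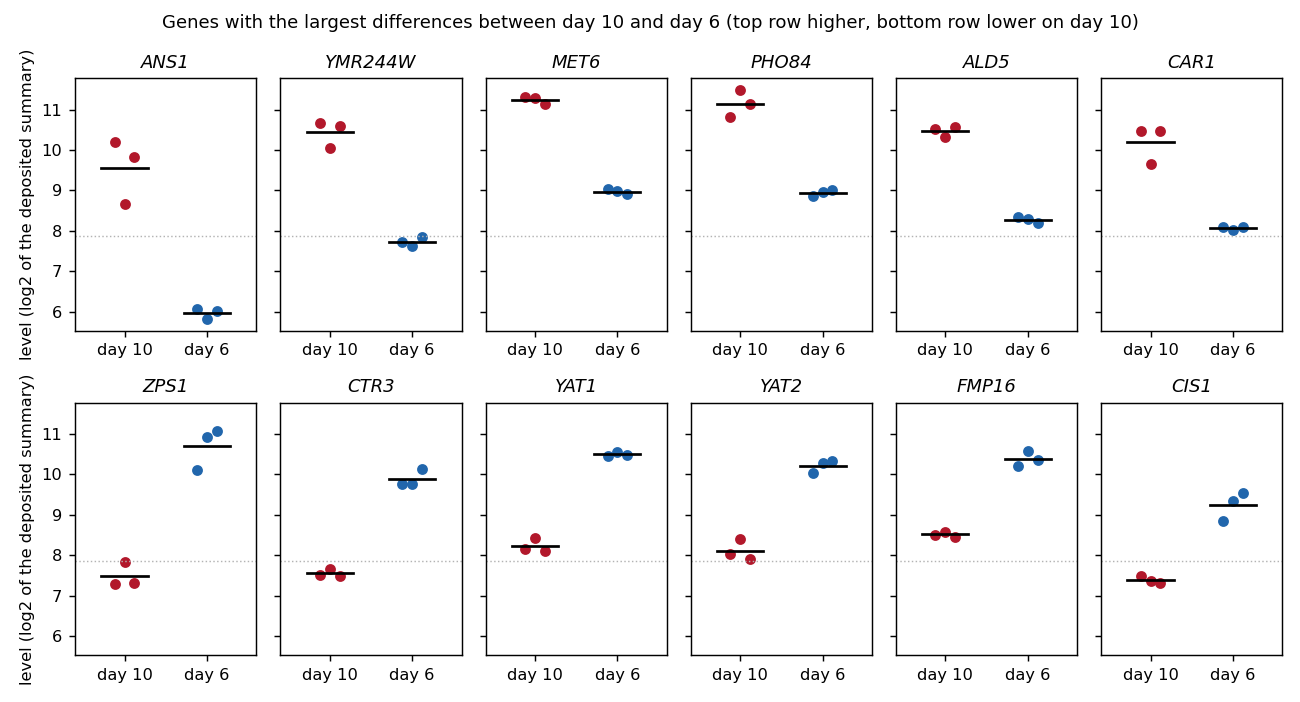
Levels (log2) of the 6 genes with the largest rises (top row) and the 6 with the largest falls (bottom row) on the 3 arrays of day 10 (red, left) and day 6 (blue, right), with the mean as a bar and the median level of all genes as a dotted line. No gene's arrays overlap between the days, and day 10 replicate 2 (middle red point) is the lowest of its day for ANS1, YMR244W and CAR1.

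Genes of the machinery that makes ribosomes were higher on day 10. Of 139 ribosome biogenesis factors 128 rose, 38 of them at least 2-fold, and 1 fell, with a median difference of 0.74 (1.04 with the covariate), beside -0.02 over all genes. NOP1, the fibrillarin that methylates ribosomal RNA, had levels of 10.29, 9.90 and 10.16 on day 10, against 8.14, 8.26 and 8.38 on day 6 (1.86 ± 0.10). NSR1, the yeast nucleolin, had levels of 10.83, 10.50 and 10.79 on day 10, against 8.48, 8.54 and 8.72 on day 6 (2.12 ± 0.15). Both stood on day 10 near their log phase levels, whose means were 10.45 for NOP1 and 10.54 for NSR1. The RNA helicases HAS1 and DBP3 rose by 1.72 ± 0.12 and 1.59 ± 0.11, the small nucleolar RNP proteins NOP56, NOP58 and GAR1 by 1.51 ± 0.15, 1.44 ± 0.12 and 1.45 ± 0.09. NOP16, a factor of the large subunit, was the exception at -0.55 ± 0.09. The list's median level was 9.09 in log phase, 7.85 on day 2, 7.99 on day 6 and 8.68 on day 10. Without day 10 replicate 2, 129 rose and 1 fell, and with the arrays centred on the hybridisation controls NOP16 lost its call (-0.33).

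Cytosolic ribosomal proteins rose more modestly. Of 127 genes 101 rose and 1 fell, the median difference was 0.49, and 9 passed 2-fold. RPL9A was the leading gene with levels of 10.13, 9.85 and 10.12 on day 10, against 8.17, 8.20 and 8.32 on day 6 (1.81 ± 0.11), while RPL9B, its near-identical copy, was not called at 0.11 ± 0.12. RPL5, which carries 5S RNA into the subunit, rose by 1.41 ± 0.07, the stalk protein RPP2B by 1.24 ± 0.05, and RPL17A and RPL12B by 1.16 ± 0.06 and 1.11 ± 0.06. RPS22A rose by 1.38 ± 0.19 while RPS22B fell, with a difference of -0.43 ± 0.14. Many ribosomal proteins are made from such duplicated genes, whose probes can bind the transcript of the copy, so a difference between copies is uncertain. RPS22B was not called with the covariate (-0.14), on the hybridisation controls (-0.21) or in 4 of the 6 fits with an array left out. The list stood at a median level of 11.70 in log phase, 10.77 on day 2, 10.27 on day 6 and 10.81 on day 10.

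Transcription of ribosomal and transfer RNA depends on RNA polymerases I and III. Of 36 genes of these enzymes and of the factors that place polymerase III 24 rose and 8 fell, with a median of 0.34 (25 higher and 1 lower on the hybridisation controls, and 24 higher and 7 lower and a median of 0.63 with the covariate). The polymerase I subunits RPA135, RPA49, RPA12, RPA190 and RPA43 rose by 1.36 ± 0.12, 1.35 ± 0.13, 1.19 ± 0.12, 1.15 ± 0.12 and 1.14 ± 0.10, and RPC40, shared by polymerases I and III, by 0.97 ± 0.07. The falls were BRF1 at -0.75 ± 0.06 and BDP1 at -0.28 ± 0.06 of TFIIIB, TFC3 at -0.46 ± 0.05, TFC8 at -0.37 ± 0.06, TFC4 at -0.34 ± 0.06, TFC6 at -0.21 ± 0.05 and TFC1 at -0.19 ± 0.05 of TFIIIC, and MAF1, the repressor of polymerase III, at -0.37 ± 0.10. With the arrays centred on the hybridisation controls BRF1 alone was called as lower among these 8, and with the covariate MAF1 differed by -0.70 and TFC1 lost its call (-0.14).

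Translation factors and the enzymes that charge transfer RNA also rose. 32 of 35 translation factors rose and 2 fell (median 0.66), and 19 of 20 tRNA synthetases rose with 0 lower (median 0.74). YEF3, the elongation factor 3 of growing cells, had levels of 12.31, 12.25 and 12.26 on day 10, against 10.77, 11.04 and 11.05 on day 6 (1.32 ± 0.09). HEF3, the second elongation factor 3 gene, went the other way with levels of 8.15, 8.58 and 8.05 on day 10, against 9.74, 10.14 and 10.01 on day 6 (-1.71 ± 0.13), and neither gene's arrays overlapped. Initiation was represented by RLI1 at 1.12 ± 0.09, the poly(A)-binding protein PAB1 at 1.11 ± 0.08, the eIF4G gene TIF4631 at 1.06 ± 0.09, the eIF4A gene TIF2 at 1.02 ± 0.06 and the eIF3 subunit NIP1 at 0.98 ± 0.11. HYP2, the eIF5A of aerobic cells, and CAM1, an elongation factor 1B subunit, were lower at -0.30 ± 0.07 and -0.27 ± 0.07, and lost their calls with the covariate (-0.12 and -0.10) and on the hybridisation controls (-0.08 and -0.05). Among the synthetases DED81 for asparagine rose by 0.95 ± 0.08, ILS1 for isoleucine by 0.93 ± 0.10, FRS1 for phenylalanine by 0.87 ± 0.08 and HTS1 for histidine by 0.86 ± 0.06.

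Mitochondrial ribosomal proteins did not share the rise. Of 71 genes 49 fell and 1 rose, with a median of -0.26, no gene past 2-fold, and the largest falls at -0.76 ± 0.10 for MRPL33, -0.73 ± 0.08 for MRPL51 and -0.70 ± 0.08 for MRPL50. There were 1 higher and 5 lower on the hybridisation controls, and 3 higher and 36 lower without day 10 replicate 2, and the median on the hybridisation controls was -0.04. The gene that rose, MRPL11, had a difference of 0.18 ± 0.07, overlapping arrays and no call with the covariate (0.07) or in 4 of the 6 fits with an array left out. Genes of mitochondrial protein import were mixed, with 6 higher and 9 lower of 33 and a median of -0.01 (6 higher and 0 lower and a median of 0.21 on the hybridisation controls, and 4 higher and 12 lower and a median of 0.01 with the covariate).

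**Figure D3:**
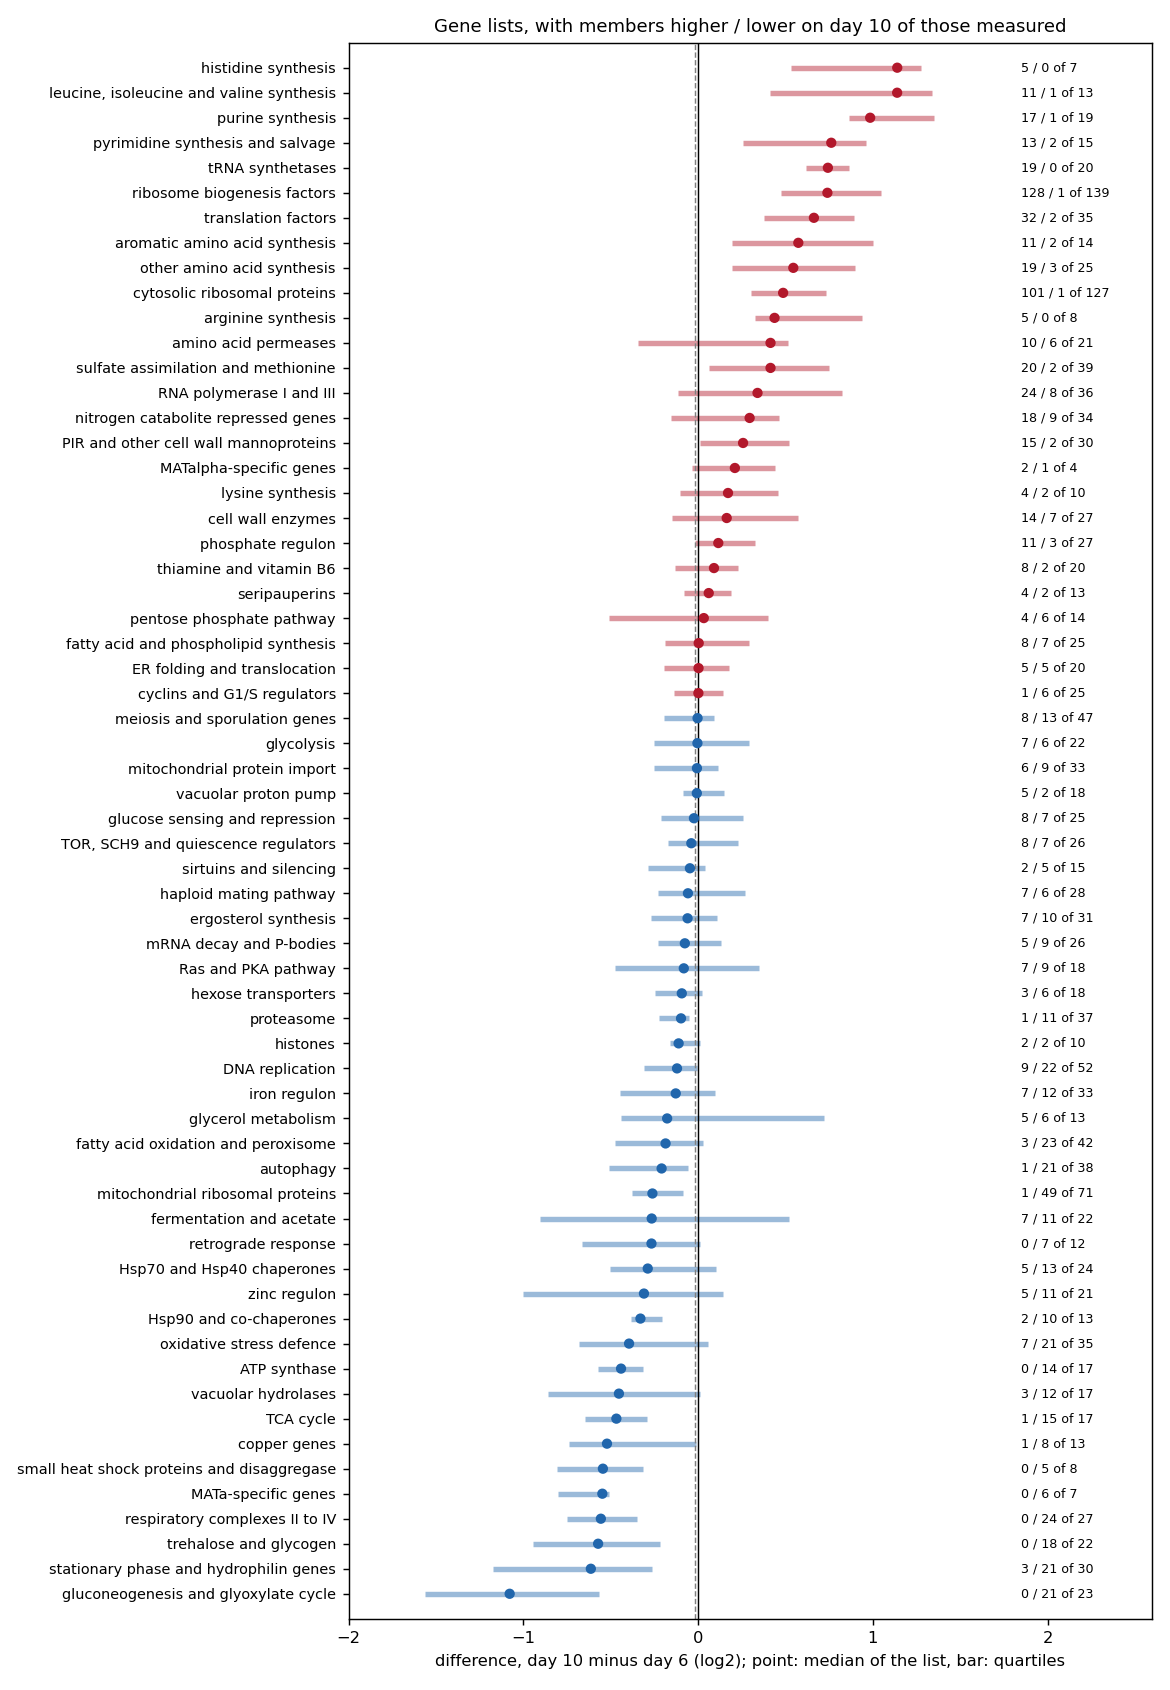
Difference, day 10 minus day 6 (log2), of the 62 gene lists, ordered by their median (point) with the quartiles of the members (bar). Numbers at the right give the members higher and lower on day 10 of those measured, and the dashed line is the median of all genes (-0.02). The lists run from histidine synthesis (1.14) to gluconeogenesis and the glyoxylate cycle (-1.08).

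Genes of amino acid synthesis were higher on day 10 in most branches. The branched-chain pathway had 11 of 13 genes higher and 1 lower, a median of 1.14, and 9 genes past 2-fold. BAT1, the mitochondrial branched-chain aminotransferase, had levels of 9.996, 9.76 and 9.90 on day 10, against 8.01, 7.93 and 7.75 on day 6 (1.98 ± 0.08), while BAT2, its cytosolic counterpart, fell with a difference of -0.45 ± 0.06. ILV3, ILV5 and ILV1, which make isoleucine and valine precursors, rose by 1.64 ± 0.12, 1.34 ± 0.07 and 1.26 ± 0.10, the leucine gene LEU2 by 1.26 ± 0.12 and the mitochondrial carrier OAC1 by 1.51 ± 0.09. The list's median level on day 10, 9.69, exceeded that of log phase (8.74), day 2 (8.84) and day 6 (8.36). BAT2 was not called on the hybridisation controls (-0.23).

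Histidine synthesis had 5 of 7 genes higher and 0 lower (median 1.14), with HIS1, the first enzyme, at 1.40 ± 0.08, HIS3 at 1.33 ± 0.06 and the multifunctional HIS4 at 1.21 ± 0.05, while HIS2 and HIS6 were not called. Aromatic synthesis had 11 of 14 higher and 2 lower (median 0.57). ARO8, an aminotransferase of aromatic amino acids and of lysine synthesis, had levels of 9.43, 9.20 and 9.41 on day 10, against 7.50, 7.41 and 7.47 on day 6 (1.89 ± 0.07), and ARO4 and ARO3, the enzymes of the first step, rose by 1.78 ± 0.08 and 1.53 ± 0.08. ARO2, the chorismate synthase, rose by 1.03 ± 0.06 and the tryptophan gene TRP2 by 0.92 ± 0.06. The members that fell, ARO9 at -0.73 ± 0.07 and ARO10 at -0.72 ± 0.11, act in the breakdown of aromatic amino acids. Arginine synthesis had 5 of 8 higher and 0 lower (median 0.44), led by ARG4 at 1.15 ± 0.13 (0.63 with the 3' minus 5' covariate) and CPA1, a carbamoyl phosphate synthase subunit, at 1.12 ± 0.09. ARG1 was not called at 0.42 ± 0.18. Lysine synthesis was divided, 4 higher and 2 lower of 10: beside ARO8, LYS1, LYS4 and LYS2 rose by 0.51 ± 0.08, 0.49 ± 0.09 and 0.35 ± 0.07, and LYS9 and LYS20 stood at -0.53 ± 0.12 and -0.52 ± 0.12. On the hybridisation controls LYS9 and LYS20 were not called (-0.31 and -0.30), and with the covariate the list had 6 higher and 2 lower, its median was 0.32 in place of 0.17, and LYS1 differed by 0.31.

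The remaining amino acid genes, for aspartate, threonine, serine, glycine, glutamate and proline, had 19 of 25 higher and 3 lower (median 0.55, 19 higher and 1 lower on the hybridisation controls). HOM2, the aspartate semialdehyde dehydrogenase, had levels of 10.20, 10.13 and 10.26 on day 10, against 8.11, 8.23 and 8.18 on day 6 (2.02 ± 0.10). HOM3, the aspartate kinase before it, rose by 1.43 ± 0.06, SHM2, the serine hydroxymethyltransferase of one-carbon metabolism, by 1.63 ± 0.08, GLY1 by 1.39 ± 0.08 and SER3 by 1.35 ± 0.10. GDH1, the main glutamate dehydrogenase of ammonium assimilation, had levels of 11.08, 10.61 and 10.81 on day 10, against 9.88, 9.86 and 9.68 on day 6 (1.02 ± 0.11). GDH3, its isoenzyme known for use on non-fermentable carbon, fell with a difference of -0.68 ± 0.08, as did HOM6 at -0.44 ± 0.10 and PRO3 at -0.21 ± 0.08, the last with overlapping arrays. HOM6 and PRO3 were not called on the hybridisation controls (-0.22 and 0.01), and with the covariate they differed by -0.72 and -0.36. PRO3 was not called in 4 of the 6 fits with an array left out. GCN4, the activator of amino acid synthesis, had a difference of 0.32 ± 0.06.

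Genes of sulfate assimilation and methionine metabolism rose in part. Of 39 genes 20 rose and 2 fell, the median was 0.41, and the covariate lowered it to 0.17 with 14 higher and 9 lower. Without day 10 replicate 2 it was 0.25. The largest rises were those of MET6, the S-adenosylmethionine synthetase SAM1 (1.70 ± 0.16), the S-adenosylhomocysteine hydrolase SAH1 (1.41 ± 0.07) and the S-methylmethionine permease MMP1 (1.29 ± 0.13). MET17, which fixes sulfide, was not called at 0.37 ± 0.18, and neither was the sulfate permease SUL1, with levels of 9.70, 10.03 and 9.48 on day 10, against 9.06, 9.02 and 9.14 on day 6 (0.66 ± 0.29, adjusted p = 0.0633). Its arrays did not overlap. MET32, a regulator of the pathway, was lower at -0.55 ± 0.16, though not called on the hybridisation controls (-0.33), and differed by -0.94 with the covariate.

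Genes of nucleotide synthesis rose across both branches. Of 19 purine genes 17 rose and 1 fell, with a median of 0.98 and 8 past 2-fold. The guanine branch held large differences, with the IMP dehydrogenases IMD4 and IMD3 at 1.75 ± 0.13 and 1.41 ± 0.08 and the GMP synthase GUA1 at 1.74 ± 0.10. MTD1, a one-carbon folate enzyme, rose by 1.53 ± 0.09, ADE12 and ADE13 of AMP synthesis by 1.42 ± 0.09 and 1.30 ± 0.08, and ADE16 fell with a difference of -0.33 ± 0.06. Their median level was 10.12 in log phase, 9.58 on day 2, 8.97 on day 6 and 10.09 on day 10. Pyrimidine genes had 13 of 15 higher (median 0.76). URA7, the main CTP synthase, had levels of 9.18, 8.86 and 9.04 on day 10, against 7.24, 6.96 and 7.47 on day 6 (1.80 ± 0.14), and the falls were its isoenzyme URA8 at -0.63 ± 0.07 and URA10, the minor orotate phosphoribosyltransferase, at -0.54 ± 0.10. URA1 and URA2 of the synthesis pathway rose by 1.29 ± 0.08 and 0.89 ± 0.10, FUR1 and FUR4 of uracil salvage and uptake by 1.10 ± 0.09 and 0.96 ± 0.10. ADE16 and URA10 were not called on the hybridisation controls (-0.11 and -0.32), and URA10 differed by -0.86 with the covariate.

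Genes that are switched off by rich nitrogen sources included large changes in both directions. Of 34 genes 18 rose and 9 fell (median 0.30, 20 higher and 2 lower on the hybridisation controls, and 12 higher and 8 lower with the covariate). The ammonium permease MEP2 had levels of 9.002, 8.50 and 8.63 on day 10, against 7.54, 7.52 and 7.72 on day 6 (1.12 ± 0.17), the arginine permease CAN1 rose by 1.08 ± 0.10, the glutamine synthetase GLN1 by 0.85 ± 0.12 and the general permease GAP1 by 0.47 ± 0.13, the last not called with the covariate (0.43). With the covariate MEP2 differed by 0.70. The falls included the proline pathway, with the permease PUT4 at -1.37 ± 0.15, PUT1 at -0.43 ± 0.16 and PUT2 at -0.24 ± 0.08, and the vacuolar carboxypeptidase CPS1 at -0.72 ± 0.07 and the catabolic glutamate dehydrogenase GDH2 at -0.50 ± 0.12. PUT1 was not called in 5 of the 6 fits with an array left out and PUT2 in 2, and PUT1, PUT2 and GDH2 were not called on the hybridisation controls (-0.21, -0.01 and -0.28), while the covariate gave PUT1 -0.92 and PUT2 -0.48.

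Amino acid permeases had 10 higher and 6 lower of 21 and a median of 0.41 (12 higher and 3 lower on the hybridisation controls, 8 higher and 7 lower and a median of 0.05 with the covariate, and 10 higher and 8 lower and a median of 0.18 without day 10 replicate 2). HIP1 for histidine rose by 1.33 ± 0.08, GNP1 for glutamine by 1.11 ± 0.12 and AGP1, a broad permease, by 0.52 ± 0.09. AGP2, a carnitine and polyamine carrier, stood at -1.06 ± 0.08, TAT1 at -0.73 ± 0.08, ALP1 at -0.41 ± 0.09, BAP3 at -0.35 ± 0.13 and the amino acid sensor SSY1 at -0.17 ± 0.05. The calls of ALP1, BAP3 and SSY1 were lost on the hybridisation controls (-0.19, -0.13 and 0.05), and those of BAP3 and SSY1 with the covariate too (-0.46 and -0.16). BAP3 was not called in 4 of the 6 fits with an array left out, nor SSY1 without day 10 replicate 3.

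Genes that let yeast live on acetate and acetyl-CoA had the largest fall in median of all the lists. Of 23 genes of gluconeogenesis, the glyoxylate cycle and the carnitine shuttle 21 fell, 0 rose and 12 fell at least 2-fold, with a median of -1.08. The shuttle carries acetyl units into mitochondria, and its genes fell together: YAT2 had levels of 8.03, 8.40 and 7.90 on day 10, against 10.05, 10.29 and 10.33 on day 6 (-2.11 ± 0.11), the mitochondrial carrier CRC1 differed by -1.82 ± 0.17 and CAT2 by -1.58 ± 0.10. MLS1, the malate synthase of the glyoxylate cycle, had levels of 9.92, 10.47 and 10.01 on day 10, against 11.92, 11.84 and 11.73 on day 6 (-1.70 ± 0.22), and ICL1, the isocitrate lyase, had levels of 10.23, 10.44 and 10.24 on day 10, against 11.69, 11.61 and 11.58 on day 6 (-1.32 ± 0.17). The arrays of these genes did not overlap between the days. SIP4, an activator of gluconeogenic genes, differed by -1.59 ± 0.10. PCK1, the committed enzyme of gluconeogenesis, had levels of 11.29, 11.49 and 11.30 on day 10, against 12.11, 11.91 and 11.74 on day 6, a difference of -0.56 ± 0.21 that was not called on the hybridisation controls (-0.34) and in 4 of the 6 fits with an array left out. The list's median level was 6.62 in log phase, 8.94 on day 2, 10.10 on day 6 and 8.76 on day 10.

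Fermentation and acetate genes changed in both directions. Of 22 genes 7 rose and 11 fell (7 higher and 7 lower on the hybridisation controls). ADH1, the alcohol dehydrogenase that makes ethanol, had levels of 12.31, 12.30 and 12.32 on day 10, against 10.94, 11.03 and 10.78 on day 6 (1.40 ± 0.08). ADH2, the isoenzyme that oxidises ethanol, had levels of 8.85, 9.17 and 8.63 on day 10, against 9.51, 9.32 and 9.40 on day 6 (-0.53 ± 0.15), a fall that was not called with the hybridisation controls (-0.31) or without day 10 replicate 3 (-0.40) and was -0.81 with the covariate. ACH1, a mitochondrial CoA transferase that handles acetate, had levels of 9.69, 10.36 and 9.91 on day 10, against 11.73, 11.79 and 11.79 on day 6 (-1.78 ± 0.13), and ACS1, the acetyl-CoA synthetase of cells on acetate, differed by -1.50 ± 0.10. ACS2, the acetyl-CoA synthetase of cells on glucose, fell as well (-1.16 ± 0.08), while ALD5, whose product is acetate, was among the largest rises. PDC5, a pyruvate decarboxylase, rose by 0.63 ± 0.14 but was not called with the covariate (0.47).

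Genes of respiration were lower. 24 of 27 genes of complexes II to IV and the external NADH dehydrogenases fell and 0 rose (median -0.56), 14 of 17 ATP synthase genes fell and 0 rose (median -0.44), and 15 of 17 genes of the TCA cycle fell with 1 higher (median -0.47). NDE2, an external NADH dehydrogenase, had levels of 7.65, 7.85 and 7.72 on day 10, against 9.39, 9.59 and 9.58 on day 6 (-1.78 ± 0.12), while NDE1, its isoenzyme, was not called at 0.16 ± 0.10. The cytochrome c genes CYC7 and CYC1 differed by -1.005 ± 0.16 and -0.83 ± 0.06 and the oxidase subunits COX12 and COX13 by -0.85 ± 0.08 and -0.82 ± 0.05. INH1, the inhibitor of the ATP synthase, differed by -1.02 ± 0.07 and its partners STF1 and STF2 by -0.82 ± 0.09 and -0.64 ± 0.10. In the TCA cycle CIT3, a mitochondrial citrate and methylcitrate synthase, differed by -1.44 ± 0.11, the dehydrogenase subunit LPD1 by -0.88 ± 0.06 and LSC2 by -0.79 ± 0.08, while IDH2, an isocitrate dehydrogenase subunit, rose by 0.39 ± 0.09. Centred on the hybridisation controls the medians were -0.34, -0.22 and -0.25, and 12, 3 and 5 genes were still called lower in the 3 lists. Of 12 genes of the retrograde response, which mitochondria signal to the nucleus, 7 fell and 0 rose (median -0.27, and 0 higher and 3 lower on the hybridisation controls), with the peroxisomal citrate synthase CIT2 at -1.16 ± 0.09 and the methylcitrate dehydratase PDH1 at -1.16 ± 0.09.

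**Figure D4:**
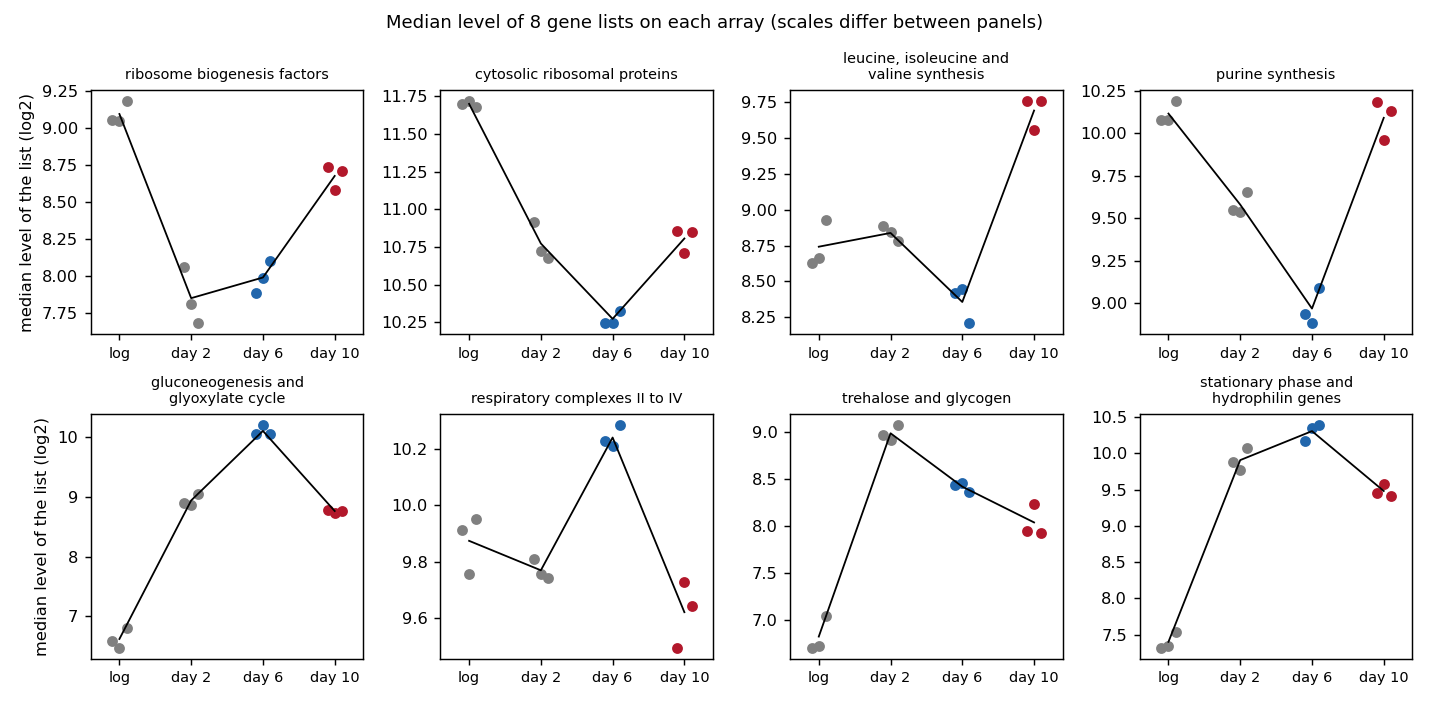
Median level (log2) of 8 gene lists on each of the 12 arrays in log phase and on days 2, 6 and 10, with a line through the mean of each time (grey, log phase and day 2; blue, day 6; red, day 10). In the upper lists all day 10 arrays lie above all day 6 arrays, and in the lower lists all lie below; the scales differ between panels.

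Genes of hexose uptake and of glycolysis moved in both directions. Of 18 hexose transporters 3 rose and 6 fell, with a median of -0.09 (2 higher and 2 lower and a median of 0.13 on the hybridisation controls, and 2 higher and 4 lower and a median of -0.06 with the covariate). HXT2, a transporter induced by low glucose, had levels of 11.24, 10.48 and 11.29 on day 10, against 9.23, 9.10 and 9.03 on day 6 (1.88 ± 0.20), and HXT4 rose by 1.29 ± 0.19. HXT5, the transporter of cells that are not growing, had levels of 9.64, 10.09 and 9.82 on day 10, against 11.37, 11.43 and 11.46 on day 6 (-1.57 ± 0.15), and STL1, a glycerol symporter of the same family, differed by -1.54 ± 0.12. HXT3 differed by -0.30 ± 0.09, without a call on the hybridisation controls (-0.08), with the covariate (-0.18) and without day 10 replicate 2. Glycolytic genes had 7 higher (31.8%) and 6 lower (27.3%) of 22, near the 28.8% and 32.1% over all genes. Their median was 0.00 (8 higher and 0 lower and a median of 0.22 on the hybridisation controls, and 4 higher and 9 lower and a median of -0.19 with the covariate). HXK2, the hexokinase that signals glucose repression, had levels of 9.52, 9.31 and 9.82 on day 10, against 8.07, 8.28 and 8.31 on day 6 (1.33 ± 0.11), and PFK27, which makes the activator fructose 2,6-bisphosphate, rose by 1.11 ± 0.09. PGK1 and GPM1 stood at -0.49 ± 0.16 and -0.27 ± 0.09, without calls on the hybridisation controls (-0.27 and -0.05) and further down with the covariate (-1.01 and -0.56). Neither was called without day 10 replicate 1 or without day 6 replicate 2.

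Regulators of glucose repression had 8 higher and 7 lower of 25, shares near the 28.8% higher and 32.1% lower over all genes. There were 8 higher and 2 lower and a median of 0.20 on the hybridisation controls, and 5 higher and 6 lower with the covariate. REG2, a regulatory subunit of the phosphatase Glc7, had levels of 7.80, 7.91 and 7.81 on day 10, against 9.53, 9.74 and 9.71 on day 6 (-1.82 ± 0.09), and SIP2, a subunit of the Snf1 kinase, differed by -0.73 ± 0.06. The repressors MIG1 and MIG2 rose by 0.52 ± 0.08 and 0.46 ± 0.12, and the casein kinase YCK2 by 0.55 ± 0.07.

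Glycerol metabolism had 5 genes higher and 6 lower of 13 (median -0.18, 5 higher and 2 lower and a median of 0.04 on the hybridisation controls, and a median of -0.27 with the covariate). GPP1 and GPP2, which make glycerol from its phosphate, rose by 2.11 ± 0.14 and 1.55 ± 0.12, as did GPD2 by 0.72 ± 0.11, while GUT2, which oxidises glycerol phosphate, fell with a difference of -1.05 ± 0.11. The pentose phosphate pathway had 4 higher and 6 lower of 14 (median 0.03, 5 higher and 3 lower on the hybridisation controls, and 5 higher and 6 lower and a median of -0.16 with the covariate), and its duplicated enzymes moved in opposite directions. TKL1, the main transketolase, rose by 1.04 ± 0.06 and TKL2 had levels of 8.14, 8.39 and 8.28 on day 10, against 9.57, 9.91 and 9.68 on day 6 (-1.46 ± 0.09). GND1, the main 6-phosphogluconate dehydrogenase, rose by 0.41 ± 0.06 and GND2 differed by -0.74 ± 0.10. SOL3, the lactonase before it, rose by 0.37 ± 0.07 and SOL4 differed by -1.24 ± 0.14. SHB17, which feeds the pathway's non-oxidative branch, rose by 0.76 ± 0.06.

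**Figure D5:**
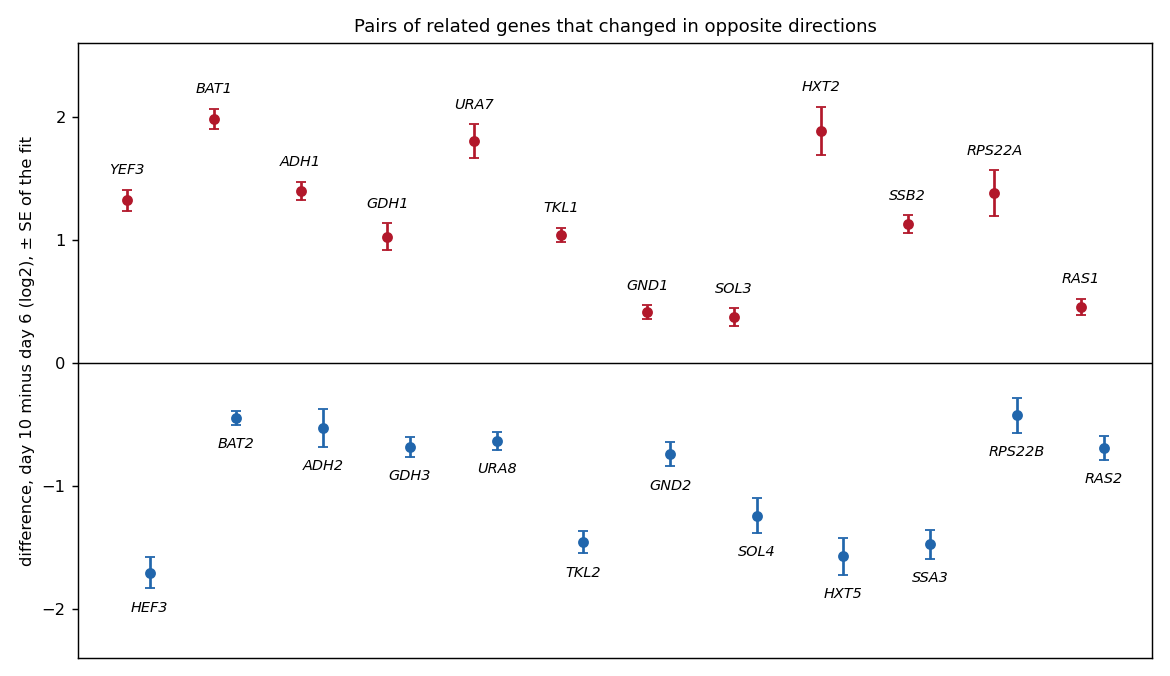
Difference, day 10 minus day 6 (log2), ± SE of the fit for 12 pairs of related genes named in the text. The member that was higher on day 10 (red) is left of the member that was lower (blue). The pairs were picked because their members moved in opposite directions. Named pairs that moved the same way, such as GPP1 and GPP2 or YAT1 and YAT2, are not shown. The falls of RPS22B, ADH2 and BAT2 were not called on the hybridisation controls. The pairs include the elongation factors 3 (YEF3 at 1.32, HEF3 at -1.71), the transketolases (TKL1 at 1.04, TKL2 at -1.46) and the CTP synthases (URA7 at 1.80, URA8 at -0.63).

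Transcripts of reserve carbohydrate genes and of the markers of stationary phase fell. Trehalose and glycogen themselves were not measured. Of 22 trehalose and glycogen genes 18 fell and 0 rose, 5 of the falls at least 2-fold (median -0.57, 0 higher and 11 lower on the hybridisation controls). PGM2, the phosphoglucomutase, differed by -1.37 ± 0.13, PIG2, a putative regulator of glycogen synthase, by -1.27 ± 0.11, the glycogenin GLG2 by -1.15 ± 0.07, the branching enzyme GLC3 by -1.10 ± 0.16 and the trehalose synthase TPS1 by -0.97 ± 0.12. GPH1, the glycogen phosphorylase, had levels of 8.29, 9.04 and 8.34 on day 10, against 9.79, 9.77 and 9.68 on day 6 (-1.19 ± 0.27) and was not called with the covariate (-0.96). Day 10 replicate 2 lay above the other day 10 arrays for GPH1. Of 30 genes known from stationary phase or for hydrophilins, small hydrophilic proteins linked to water loss, 21 fell and 3 rose, with 11 falls of at least 2-fold and a median of -0.61 (2 higher and 21 lower with the covariate). SIP18, a hydrophilin, had levels of 10.38, 10.25 and 10.22 on day 10, against 11.96, 11.999 and 12.17 on day 6 (-1.76 ± 0.14). Its relative GRE1 differed by -1.54 ± 0.14, SPG1, a gene needed for heat survival in stationary phase, by -1.53 ± 0.16 and the glutamate decarboxylase GAD1 by -1.27 ± 0.14. The median level of the list was 7.40 in log phase, 9.91 on day 2, 10.31 on day 6 and 9.48 on day 10. The members that rose were YGP1, a cell wall glycoprotein, by 0.77 ± 0.14, SNZ1, a vitamin B6 enzyme of stationary phase, by 0.59 ± 0.13 and NOP6 by 0.42 ± 0.13, of which YGP1 and SNZ1 were not called with the covariate (0.31 and 0.43). NOP6 differed by 0.86 with the covariate and was not called without day 10 replicate 1 (0.32).

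Chaperone genes fell more often than they rose in 3 of 4 lists at the deposited scaling. Of 8 small heat shock proteins and disaggregases 5 fell and 0 rose (median -0.54, 0 higher and 3 lower on the hybridisation controls, and 0 higher and 2 lower with the covariate). HSP42 differed by -1.14 ± 0.20, HSP30, a membrane protein, by -1.02 ± 0.15 and the disaggregase HSP104 by -0.50 ± 0.17. HSP26 had levels of 11.76, 12.10 and 11.93 on day 10, against 12.61, 12.76 and 12.62 on day 6 (-0.74 ± 0.28, adjusted p = 0.0346) and was not called with the covariate (-0.99) nor in 5 of the 6 fits with an array left out. HSP12, a small membrane-protecting protein, was not called at -0.59 ± 0.27, although its arrays did not overlap. The Hsp70 and Hsp40 list had 5 higher and 13 lower of 24 (median -0.29, -0.07 on the hybridisation controls, with 5 higher and 2 lower). SSA3, a stress-induced Hsp70, had levels of 9.81, 10.20 and 9.95 on day 10, against 11.40, 11.59 and 11.40 on day 6 (-1.47 ± 0.12), and the mitochondrial disaggregase HSP78 differed by -0.73 ± 0.11. In the other direction the Hsp70 proteins and partner that sit on the ribosome rose, SSB1 by 0.93 ± 0.07, SSB2 by 1.13 ± 0.07, SSZ1 by 0.90 ± 0.10 and ZUO1 by 0.60 ± 0.07. A second probe set of SSB1 gave a difference of 1.54. SSA4 was not called at -0.29 ± 0.23. The Hsp90 list had 2 higher and 10 lower of 13 (median -0.33, -0.11 on the hybridisation controls, with 2 higher and 1 lower), with STI1 at -0.71 ± 0.10, HSP82 at -0.48 ± 0.13 and the co-chaperone CNS1 at 0.75 ± 0.11. In the endoplasmic reticulum list 5 rose and 5 fell of 20 (5 higher and 0 lower on the hybridisation controls): HAC1, the activator of the unfolded protein response, and ERO1 were higher by 0.95 ± 0.11 and 0.78 ± 0.07, and KAR2 stood at -0.36 ± 0.07. HSP104 and HSP82 lost their calls with the covariate (-0.17 and -0.45), and HSP104, HSP82 and KAR2 on the hybridisation controls (-0.28, -0.26 and -0.14). HSP104 was not called in 3 of the 6 fits with an array left out.

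Of 35 genes of defence against oxidants 21 fell and 7 rose (median -0.39, 7 higher and 10 lower on the hybridisation controls, and 4 higher and 20 lower with the covariate). CTT1, the cytosolic catalase, had levels of 6.91, 7.08 and 6.79 on day 10, against 8.25, 8.68 and 8.30 on day 6 (-1.48 ± 0.20). SOD2, the mitochondrial superoxide dismutase, had levels of 9.57, 9.83 and 9.50 on day 10, against 10.93, 10.94 and 10.87 on day 6 (-1.28 ± 0.09). The peroxiredoxins AHP1 and TSA1 differed by -1.10 ± 0.11 and -1.09 ± 0.09. Those that rose included the NADPH oxidoreductase OYE2 by 1.15 ± 0.07, the regulator SKN7 by 0.66 ± 0.06 and the thioredoxin reductase TRR1 by 0.44 ± 0.07.

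Among genes of self-digestion and protein breakdown the vacuolar hydrolase list shifted most, and the median of the autophagy, proteasome and peroxisome lists changed sign with the scaling. Autophagy genes had 21 lower and 1 higher of 38 and a median of -0.21 (2 higher and 7 lower and a median of 0.01 on the hybridisation controls). ATG39, a receptor for nuclear autophagy, differed by -1.24 ± 0.09, ATG40, one for the endoplasmic reticulum, by -0.80 ± 0.10, ATG7 by -0.85 ± 0.10 and ATG8, the protein that coats the autophagosome, by -0.66 ± 0.09 with levels of 9.78, 10.07 and 9.85 on day 10, against 10.51, 10.55 and 10.62 on day 6. ATG5 rose by 0.30 ± 0.07, without a call with the covariate (0.24). Vacuolar hydrolases, a list that also holds inhibitors of them, had 12 lower and 3 higher of 17 (median -0.45, 3 higher and 7 lower on the hybridisation controls, 2 higher and 11 lower with the covariate, and 2 higher and 11 lower without day 10 replicate 2). The carboxypeptidase PRC1 differed by -0.97 ± 0.08, its inhibitor TFS1 by -1.13 ± 0.15 and PAI3, the inhibitor of proteinase A, by -1.07 ± 0.12. The proteinase A gene PEP4 rose by 0.21 ± 0.08, a call that was lost with the covariate, where its difference was -0.04, and in 5 of the 6 fits with an array left out. Proteasome genes had 11 lower (29.7%, beside 32.1% over all genes) and 1 higher of 37. Their median was -0.10 (0.12 with 1 higher and 0 lower on the hybridisation controls, -0.17 with the covariate and -0.15 without day 10 replicate 2). Peroxisome and fatty acid oxidation genes had 23 lower and 3 higher of 42 and a median of -0.19 (4 higher and 5 lower and a median of 0.03 on the hybridisation controls, and 1 higher and 21 lower with the covariate), led by the thiolase POT1 at -0.87 ± 0.09 and the peroxisomal catalase CTA1 at -0.80 ± 0.15. The vacuolar proton pump had 5 higher and 2 lower of 18 (median -0.01, 4 higher and 0 lower and a median of 0.21 on the hybridisation controls, and 2 higher and 0 lower and a median of 0.07 with the covariate).

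In the zinc regulon 11 of 21 genes fell and 5 rose (median -0.31, 2 higher and 13 lower and a median of -0.58 with the covariate, and 3 higher and 11 lower without day 10 replicate 2). ZAP1, the activator that zinc shortage induces, had levels of 7.18, 7.62 and 7.26 on day 10, against 8.53, 8.76 and 8.75 on day 6 (-1.32 ± 0.20). ADH4, a zinc-regulated alcohol dehydrogenase, had levels of 7.38, 7.56 and 7.31 on day 10, against 8.28, 9.29 and 9.17 on day 6 (-1.50 ± 0.34), with day 6 replicate 1 below the other day 6 arrays. ZRT3, which releases zinc from the vacuole, differed by -1.13 ± 0.17, DPP1 by -0.9997 ± 0.21 and IZH3 by 0.93 ± 0.06. With the covariate ADH4, ZAP1, ZRT3 and DPP1 differed by -2.58, -2.10, -1.79 and -1.79. Copper genes had 8 lower and 1 higher of 13 (median -0.52, 2 higher and 5 lower on the hybridisation controls), with the transporter CTR1 at -1.10 ± 0.12, the copper pump CCC2 at -1.03 ± 0.12 and the metallothionein CRS5 at -0.74 ± 0.07. The activator MAC1 rose by 0.39 ± 0.10, but differed by 0.02 with the covariate and was then not called. In the iron regulon 12 fell and 7 rose of 33, with a median of -0.13. There were 7 higher and 3 lower and a median of 0.09 on the hybridisation controls, and 3 higher and 16 lower and a median of -0.40 with the covariate. The cell wall mannoprotein FIT3, which holds iron carriers, differed by -0.56 ± 0.10, the vacuolar exporter SMF3 by -0.69 ± 0.09, and the iron-sulfur scaffolds ISU2 and ISU1 rose by 0.57 ± 0.10 and 0.40 ± 0.09. FIT3 was not called on the hybridisation controls (-0.34) and ISU1 not with the covariate (0.16). Among phosphate genes 11 rose and 3 fell of 27 (median 0.12, 11 higher and 0 lower on the hybridisation controls): beside PHO84 the low-affinity transporter PHO90 rose by 0.92 ± 0.14 (1.44 with the covariate) and the sodium-coupled PHO89 by 0.73 ± 0.15, the last not called with the covariate (0.35). Genes of thiamine and vitamin B6 had 8 higher and 2 lower of 20 (median 0.09, 3 higher and 4 lower and a median of -0.02 with the covariate, and 4 higher and 5 lower without day 10 replicate 2). THI13, a thiamine synthesis gene, had levels of 7.90, 8.04 and 7.94 on day 10, against 8.58, 8.78 and 8.69 on day 6 (-0.72 ± 0.07). THI4 was not called at -0.13 ± 0.08.

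Genes of the cell wall changed, both those of its coat and those of its enzymes. Of 30 mannoproteins 15 rose and 2 fell (median 0.26, 8 higher and 2 lower and a median of 0.17 with the covariate, and 14 higher and 4 lower without day 10 replicate 2). PIR1, a covalently bound wall protein, had levels of 10.24, 10.40 and 10.53 on day 10, against 8.77, 8.45 and 8.42 on day 6 (1.84 ± 0.17), its relative CIS3 rose by 1.57 ± 0.07 and PIR3 was not called at 0.22 ± 0.11. PST1, a marker of wall stress, rose by 0.92 ± 0.10 and NCA3 by 0.83 ± 0.11. TIP1 rose by 0.58 ± 0.11 and was not called with the covariate (0.36). Wall enzymes had 14 higher and 7 lower of 27 (13 higher and 2 lower on the hybridisation controls, and 9 higher and 3 lower with the covariate). FKS1, the glucan synthase, rose by 1.07 ± 0.08, the glucanosyltransferases GAS1 and GAS5 by 1.01 ± 0.07 and 0.79 ± 0.07, SCW10 by 1.08 ± 0.07 and UTR2, which links chitin to glucan, by 0.61 ± 0.07. The chitinase CTS1 had levels of 8.03, 9.57 and 7.997 on day 10, against 9.38, 9.34 and 9.25 on day 6 (-0.79 ± 0.30), and DSE2 and DSE1, which act with it in the separation of daughter cells, stood at -0.65 ± 0.21 and -0.53 ± 0.16. Day 10 replicate 2 stood with the day 6 arrays for CTS1, and without it CTS1 differed by -1.31 and DSE2 by -1.004. CTS1 was not called in 5 of the 6 fits with an array left out, DSE2 in 4 and DSE1 in 1, and DSE1 not on the hybridisation controls (-0.31). With the covariate none of CTS1, DSE2 and DSE1 was called (-0.93, -0.73 and -0.51). Seripauperins, a family of near-identical genes, had 4 higher and 2 lower of 13 (1 higher and 1 lower with the covariate, and 3 higher and 3 lower without day 10 replicate 2).

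Markers of cell type were read to check the labelled haploid culture. All 7 MATa-specific genes measured were above the dim limit on both days. So were all 4 MATalpha-specific genes, and that limit does not separate the types. Of these, MF(ALPHA)2 lay close to it, at means of 5.94 on day 10 and 5.91 on day 6, and was not called (0.03 ± 0.06). MF(ALPHA)1 also lay close to it on day 6, at a mean of 5.92. Of the 7 MATa-specific genes 6 were lower and 0 higher on day 10 (median -0.55, 0 higher and 3 lower on the hybridisation controls). MFA2, an a-factor gene, differed by -1.53 ± 0.19, MFA1, the other, had levels of 9.54, 10.06 and 9.28 on day 10, against 10.43, 10.51 and 10.45 on day 6 (-0.84 ± 0.16), and the pheromone receptor STE2 was not called, with levels of 7.75, 8.17 and 7.75 on day 10, against 7.91, 7.95 and 7.99 on day 6 (-0.06 ± 0.09). The alpha-factor gene MF(ALPHA)1, a mark of the opposite mating type, had levels of 6.16, 6.69 and 6.09 on day 10, against 5.91, 5.89 and 5.97 on day 6. It was called as higher (0.39 ± 0.13), with day 10 replicate 2 the highest. It was not called with the covariate (0.09) or without that array (0.20), nor in 2 further fits with an array left out. On day 2 MF(ALPHA)1 stood far higher, at a mean of 10.48. The MATa-specific genes also stood far higher then, with a median level of 11.13 on day 2, against 8.27 on day 6. Of 4 MATalpha-specific genes 2 rose and 1 fell (median 0.21, 1 higher and 0 lower and a median of 0.07 with the covariate, and 1 higher and 1 lower and a median of 0.11 without day 10 replicate 2). STE3 rose most, with levels of 7.42, 7.29 and 7.27 on day 10, against 6.74, 6.65 and 6.82 on day 6 (0.59 ± 0.06). The pheromone response genes common to both types had 7 higher and 6 lower of 28 (median -0.06, 9 higher and 1 lower and a median of 0.16 on the hybridisation controls, and 12 higher and 7 lower and a median of 0.10 with the covariate), with the agglutinin AGA1 at -0.77 ± 0.11 and the activator STE12 at 0.71 ± 0.07. Of 47 meiosis and sporulation genes 8 rose and 13 fell, and the median was 0.00 (8 higher and 1 lower and a median of 0.22 on the hybridisation controls, and 5 higher and 11 lower with the covariate). The spore wall gene SPS100 differed by -0.93 ± 0.16, and the regulator NDT80 rose by 0.43 ± 0.08.

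Genes of division held no change of 2-fold in the lists of cyclins and of replication, beside 5.14% over all genes. Other lists, such as the proteasome and mitochondrial ribosomal proteins, held none either. Cyclins and regulators of the G1 to S step had 1 higher and 6 lower of 25 (median 0.00, 2 higher and 0 lower on the hybridisation controls, 1 higher and 6 lower and a median of -0.12 with the covariate, and 1 higher and 3 lower and a median of -0.04 without day 10 replicate 2), with CLB5 at -0.42 ± 0.08 and the G1 cyclin CLN3 at 0.32 ± 0.10, and CLB1 was not called at 0.10 ± 0.13. DNA replication genes had 9 higher and 22 lower of 52 and a median of -0.12 (8 higher and 3 lower and a median of 0.10 on the hybridisation controls, and 5 higher and 24 lower with the covariate, where the median was -0.22). RFA3 of the single-strand binding complex differed by -0.97 ± 0.10, the flap nuclease RAD27 by -0.71 ± 0.10 and the sliding clamp POL30 by -0.59 ± 0.12, while ORC3 of the origin complex rose by 0.53 ± 0.08. CLB5 and POL30 were not called on the hybridisation controls (-0.20 and -0.37). With the covariate POL30 differed by -1.03 and CLN3 by 0.49, and CLN3 was not called without day 10 replicate 1 (0.20). Histones had 2 higher and 2 lower of 10 (2 higher and 0 lower and a median of 0.11 on the hybridisation controls, 2 higher and 3 lower with the covariate, and 2 higher and 4 lower without day 10 replicate 2). The sirtuin and silencing genes had 2 higher and 5 lower of 15 (2 higher and 0 lower and a median of 0.17 on the hybridisation controls), and SIR2 was not called at 0.02 ± 0.06. Genes of mRNA decay had 5 higher and 9 lower of 26 (5 higher and 0 lower and a median of 0.14 on the hybridisation controls, and 4 higher and 0 lower with the covariate).

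Of 31 ergosterol genes 7 rose (22.6%) and 10 fell (32.3%), beside 28.8% and 32.1% over all genes. Their median was -0.06 (7 higher and 6 lower and a median of 0.16 on the hybridisation controls, and 5 higher and 13 lower and a median of -0.21 with the covariate). ERG5 differed by -1.13 ± 0.13, ERG28 by -0.86 ± 0.07 and the HMG-CoA reductase HMG1 by -0.67 ± 0.09. ERG4, the last enzyme, rose by 0.52 ± 0.08 and the squalene epoxidase ERG1 by 0.41 ± 0.09, the call of ERG1 being lost with the covariate (0.21). Of 25 genes of fatty acid and phospholipid synthesis 8 rose and 7 fell, near the 28.8% and 32.1% over all genes. Their median was 0.00. There were 9 higher and 3 lower on the hybridisation controls, and 5 higher and 9 lower and a median of -0.11 with the covariate. Without day 10 replicate 2 there were 6 higher and 8 lower and a median of -0.06. The phosphatidylinositol synthase PIS1 and the elongase ELO3 rose by 1.11 ± 0.10 and 1.01 ± 0.08, and CPT1 and OPI3 of phosphatidylcholine synthesis stood at -0.87 ± 0.08 and -0.85 ± 0.12.

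The kinases and regulators that set lifespan in resting yeast moved in both directions. In the Ras and protein kinase A list 7 rose and 9 fell of 18 (median -0.08, 7 higher and 1 lower and a median of 0.14 on the hybridisation controls). PDE2, the phosphodiesterase that lowers cAMP, rose by 1.11 ± 0.08 and the repressor SOK2 by 0.997 ± 0.19. RAS2 differed by -0.69 ± 0.10, the Ras inhibitors IRA1 and IRA2 by -0.61 ± 0.08 and -0.53 ± 0.11, the kinase subunit TPK2 by -0.60 ± 0.12, and RAS1 rose by 0.46 ± 0.06. In the list of TOR, SCH9 and quiescence regulators 8 rose (30.8%) and 7 fell (26.9%) of 26, near the 28.8% and 32.1% over all genes. Their median was -0.04 (7 higher and 1 lower and a median of 0.18 on the hybridisation controls, and 5 higher and 7 lower and a median of -0.02 with the covariate). TOR2 differed by -0.71 ± 0.06 and TOR1 by -0.31 ± 0.05. On the hybridisation controls TOR1, IRA1, IRA2 and TPK2 were not called (-0.09, -0.39, -0.31 and -0.38), and IRA2 not with the covariate (-0.21), which gave TPK2 -0.93. SCH9, the kinase below TOR, rose by 0.27 ± 0.08, and was not called without day 10 replicate 3 (0.22) or without day 6 replicate 3 (0.21). SFP1 and IFH1, activators of ribosomal protein genes, rose by 0.45 ± 0.07 and 0.47 ± 0.10 (0.83 with the covariate), as did TOD6, a repressor of ribosome biogenesis genes, by 0.72 ± 0.09. RIM15, the kinase that quiescence needs, was not called, with levels of 7.47, 7.59 and 7.56 on day 10, against 7.54, 7.56 and 7.56 on day 6 (-0.01 ± 0.05), nor was its target GIS1 at 0.09 ± 0.06 or the stress activator MSN4 at 0.07 ± 0.09.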

How the data were processed

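The authors deposited log2-scale probe set summaries for 12 arrays, which PLIER produced per the submitters' processing notes. How background was corrected and how arrays were brought to a common scale is not given in the sources used here. That the values are log2 was inferred from their range, 5.11 to 13.79. No counts or depth stand behind them, so the number of arrays limits the precision. Gene names came from the platform annotation, with 12 symbols updated through a RefSeq table of strain S288C, and 213 control probe sets were left out. Where a gene had several probe sets (47 genes), that with the highest mean over 12 arrays was used. Probe sets of the same gene could differ in size and, for some genes, in direction. All 12 columns were mapped to samples, and no 2 arrays held identical values.

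Groups followed the labelled growth phase. One model with a level for each of 4 times took in all 12 arrays (limma 3.58.1, R 4.3.3, 8 residual degrees of freedom), and day 10 minus day 6 was tested with moderated statistics. Adjustment was by Benjamini-Hochberg over 5449 genes, with a threshold of 0.05. The code was tested on simulated data. Lists are described by counts and medians, without a test, and 25 list entries matched no measured gene.

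The gene lists, the comparison and the naming rule were chosen with earlier results of these data known. Genes are named if they are among the 20 largest rises or 20 largest falls that were called with arrays that do not overlap, among up to 6 called members of a list with the largest differences, called members that moved against the majority of their list, or on a list of 50 genes of interest. ACS2, NDE1, RPL9B, HIS2, HIS6, STE3 and MF(ALPHA)2 were named after their values were seen. The alternatives were an offset of 16, quantile normalization, centring on the median, on 27 hybridisation controls or on the 18 without bioB, a filter on dim genes, other handling of several probe sets, a trended robust prior, the 6 arrays alone, the replicate number as a block, the 3' minus 5' covariate, leaving out each of the 6 arrays, and a 2-fold minimum.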

Additional observations from a re-analysis of the deposited data

How the results depend on the processing

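Of the 3 counts of called, higher and lower genes (3319, 1571 and 1748), those under an offset, quantile normalization, median centring, the filter on dim genes, other handling of probe sets, the trended prior, the 6 arrays alone and the covariate stayed within 1.5 times. Centred on the hybridisation controls 1938 genes were called, 343 of them lower, and without bioB 1821, 328 of them lower. Every difference moves up by 0.22 or 0.21 there, and the arrays of a day also differ in these controls; which of the 2 cost the calls was not tested. A 2-fold minimum left 280 called, 185 higher and 95 lower. With each array left out in turn, called genes ran from 2914 to 3209, higher from 1400 to 1545 and lower from 1477 to 1664, and between 2897 and 3065 were shared with the genes called on all arrays. Of the 296 called genes named here, STE3 not among them, 37 lost their call and 4 changed sign on the hybridisation controls. With the covariate 27 lost it and 1 changed sign. The sign changes were PRO3 at 0.0149, SSY1 at 0.0542, TFC1 at 0.0312 and TFC6 at 0.0093 on the hybridisation controls, PRO3 at 0.0073, SSY1 at 0.0467, TFC1 at 0.0237 and TFC6 at 0.0017 without bioB, and PEP4 at -0.0369 with the covariate. In each the new value was not called.

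Whether the replicate numbers pair the arrays is not settled. The deviations of equally numbered arrays of day 10 and day 6 correlated at 0.095, 0.168 and 0.109 for replicates 1 to 3. Those of unequally numbered arrays ran from -0.246 to 0.133. Day 10 replicates 2 and 3 correlated best with the day 6 array of their own number, and day 10 replicate 1 with day 6 replicate 3 (0.133). With the replicate number as a block 3299 genes were called, 1562 higher and 1737 lower. Values near the dim limit bound what can be read of genes that are hardly expressed: 175 genes were dim on both days.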
